A study of Mus musculus with 50 samples.

Results

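Duxbl1 and Duxf3, the 2 members of the DUX family of double homeobox genes measured here, were followed in mouse embryos that received Duxbl mRNA and in their controls. They were chosen by name from the 35750 genes of the expression table, by no rule on measured values but with earlier results of these data known. All embryos were C57BL6/J wild type, from superovulated females aged 3 to 12 weeks, and each of the 50 libraries holds total RNA of a pool of 5 embryos. One arm received an injection as zygotes, 24 h after the ovulation trigger hCG, of 200 ng/µl of Duxbl-V5-2A-NLS-mCherry mRNA, which encodes tagged DUXBL and, separated from it by a 2A peptide, a nuclear red fluorescent protein. The control arm received 200 ng/µl of NLS-mCherry mRNA, which encodes that fluorescent protein alone, and a further arm was not injected. Collection took place 28 to 30 h after hCG (late 1-cell stage), at 32 h (early 2-cell) or at 48 h (late 2-cell). The uninjected and mCherry arms have 6 libraries at each stage, and the Duxbl arm has 4, 5 and 5. The injections matched in mass concentration, and the amount that entered each embryo is not given in the sources used here. The labels do not say whether pools numbered alike share a collection day, so the p-values below measure the spread between these pools.

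Duxf3 is the current symbol of mouse Dux, the gene of a transcription factor that is made for a short time as the embryo's own genome is switched on. DUX binds regulatory regions and retrotransposon promoters of the 2-cell stage, among them those of the Zscan4, Usp17l and Eif1ad gene families, and activates them. DUXBL is a related double homeobox protein, is itself a target of DUX, and is known to bind many of the same sites. The series title names DUXBL as a factor in the exit from totipotency, the state in which a cell can still form all embryonic and extraembryonic tissues.

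The homeoboxes of both genes are shown because they set the family apart and because sequence likeness decides which gene a read can be assigned to. A homeobox is the stretch that encodes the DNA-binding homeodomain. Each line gives 180 coding bases, 5′ to 3′, from a GENCODE M21 transcript (GRCm38), and the capitals mark the 18 bases that encode the core of the DNA recognition helix.
Duxbl1 homeobox 1: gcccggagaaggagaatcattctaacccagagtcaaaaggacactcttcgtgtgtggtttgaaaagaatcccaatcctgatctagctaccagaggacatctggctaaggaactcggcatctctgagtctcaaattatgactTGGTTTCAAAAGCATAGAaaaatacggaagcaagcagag
Duxbl1 homeobox 2: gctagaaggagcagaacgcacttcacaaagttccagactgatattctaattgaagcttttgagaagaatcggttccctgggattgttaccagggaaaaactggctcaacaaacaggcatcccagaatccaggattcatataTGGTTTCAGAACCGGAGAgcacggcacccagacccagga
Duxf3 homeobox 1: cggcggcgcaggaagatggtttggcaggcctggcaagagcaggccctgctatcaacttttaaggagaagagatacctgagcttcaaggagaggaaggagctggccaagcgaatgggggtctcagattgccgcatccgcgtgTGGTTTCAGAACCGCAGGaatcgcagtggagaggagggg
Duxf3 homeobox 2: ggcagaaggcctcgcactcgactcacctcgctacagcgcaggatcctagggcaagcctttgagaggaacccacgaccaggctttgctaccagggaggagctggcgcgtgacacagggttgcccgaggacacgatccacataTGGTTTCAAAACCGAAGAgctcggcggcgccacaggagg
The second homeoboxes of the 2 genes were the most alike, with 61.1% identical bases over 180 aligned positions. The first homeoboxes shared 49.5% of 182 aligned positions. The longest open reading frame of Duxbl1 held 350 codons and that of Duxf3 674. No stretch of 75 bases, the length of 1 read, was shared between the transcripts of Duxbl1 and Duxf3, so no full-length read matches both exactly.

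Duxbl1 (ENSMUSG00000048502) lies on mm39 chromosome 14, 25979001 to 25990512, plus strand, and is annotated as protein coding. In the earlier assembly GRCm38 it belongs to a cluster of near-identical copies. GRCm38 annotates 12 genes between Duxbl1 and Gm18578, among them Duxbl2 and Duxbl3, and none of these 12 is measured in the table. Of the 75-base words of the Duxbl1 transcripts, 90.4% also occur in transcripts of Duxbl2 and Duxbl3 in that annotation. On mm39, the genome named by the submitters, Gm18578 lies 33.35 kb from Duxbl1 with 0 measured genes between. Whether mm39 holds the copies was not checked. Duxf3 (ENSMUSG00000075046) lies on mm39 chromosome 10, 58065801 to 58068497, minus strand, and is also protein coding. It shares 34.1% of its 75-base words with its neighbours, 23.3% with AW822073, 16.6% with Gm10807, 3.53% with Gm4981 and 1.71% with Gm19459. How reads that match several copies were counted is not given in the sources used here, so the level of each gene is uncertain to that extent. The counts also do not separate injected from embryonic Duxbl1 RNA.

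Levels are given in CPM, the deposited value of a gene relative to its library's total, with that total corrected for library composition. The deposited totals ranged from 12.04 M to 26.96 M per library. No pair of libraries held identical values. All 7 oocyte and early embryo markers listed (such as Zp3, Gdf9 and Bmp15) were measured, with a summed level of 4537 to 7923 CPM over the libraries of the early stages. At the late 2-cell stage their sum was 542 to 1262 CPM in controls and 2443 to 3529 CPM in Duxbl embryos. The 6 granulosa markers measured summed to 123 CPM or less in every library. In pooled embryos, fewer cells of a type and less RNA per cell cannot be told apart.

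Duxbl1 was far above its control level in all 14 Duxbl libraries. At the late 1-cell stage the 4 Duxbl libraries held 4815, 4032, 3611 and 3383 CPM. The mCherry libraries ranged from 110 to 167 CPM with a median of 141, and the uninjected libraries from 82.8 to 161 with a median of 124. The lowest Duxbl library was 20.3 times the highest control library. At the early 2-cell stage the 5 Duxbl libraries held 1416, 2461, 3765, 3165 and 3907 CPM. The mCherry libraries ranged from 125 to 227 CPM (median 158) and the uninjected ones from 139 to 253 (median 195). The lowest Duxbl library, number 3, was still 5.60 times the highest control. At the late 2-cell stage the Duxbl libraries held 2772, 1343, 4472, 2775 and 2658 CPM, while mCherry libraries ranged from 158 to 494 (median 346) and uninjected ones from 85.8 to 628 (median 439). The groups did not overlap at any stage, but the distance narrowed to 2.14 times at the late 2-cell stage. The largest share taken by Duxbl1 was 0.482% of a library total corrected for composition.

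**Figure D1:**
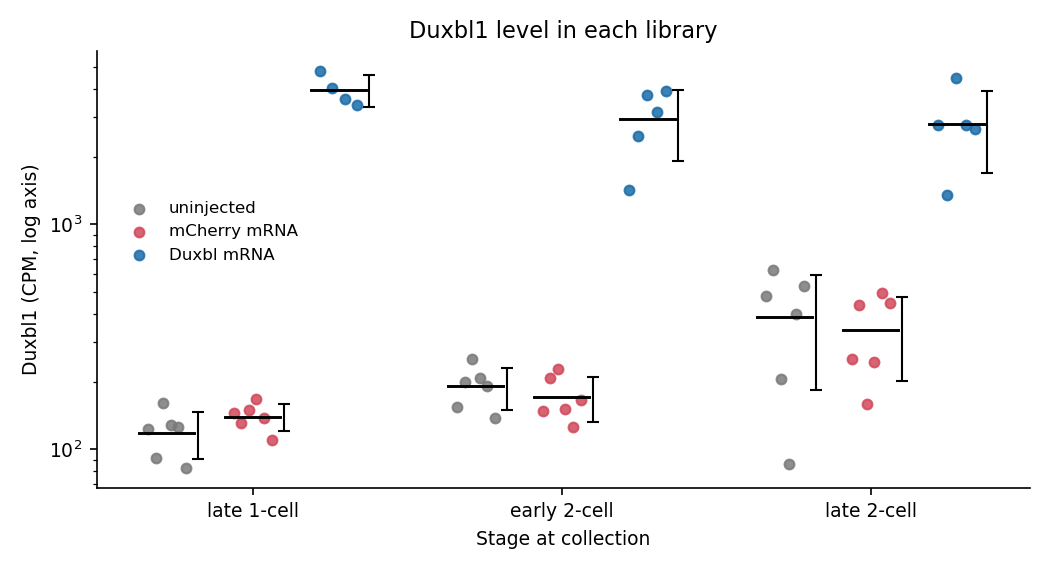
Duxbl1 level in each of the 50 libraries (CPM, log axis) by stage and arm. Points are libraries, horizontal bars are group means and vertical bars the SD. All Duxbl libraries lie at 1343 CPM or higher and all controls at 628 CPM or lower.

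On the log2 scale Duxbl1 was higher in Duxbl than in mCherry embryos by 4.81 (SE 0.16) at the late 1-cell stage, by 4.04 (SE 0.22) at the early 2-cell stage and by 3.06 (SE 0.41) at the late 2-cell stage. The limma adjusted p-values, over all genes tested, were 1.15e-14, 1.41e-10 and 1.74e-06. These differences correspond to 28.1-fold (95% interval 22.3 to 35.4), 16.4-fold (12.01 to 22.5) and 8.33-fold (4.61 to 15.0). At the late 1-cell stage Duxbl1 was 1 of 4 genes called of 20777 tested (0.0193%), and at the early 2-cell stage 1 of 89 of 21180 (0.42%). It had the smallest p and the largest rise at both. Among late 2-cell embryos 12841 of 23052 genes were called (55.7%), 25.6% higher and 30.1% lower, and the rise of Duxbl1 ranked number 197. The mCherry mean was 3.53% of the Duxbl mean at the late 1-cell stage, 5.81% at the early 2-cell stage and 12.1% at the late 2-cell stage. Between mCherry and uninjected embryos Duxbl1 differed by 0.26 (SE 0.14), -0.16 (SE 0.21) and -0.04 (SE 0.39), and none was called. In that comparison limma called 0% of the genes at each stage.

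Per length of annotated exon, Duxbl1 ranked far higher among all genes with Duxbl mRNA than without. In uninjected embryos its mean of 24.8, 39.9 and 81.2 CPM per kb at the 3 stages placed it at rank 2990, 1962 and 880 of 35096 genes. The mCherry embryos gave ranks 2590, 2146 and 993. With Duxbl mRNA the ranks were 44, 64 and 58. Among single Duxbl libraries the rank ran from 32 to 196. The injected mRNA need not have the length of the annotated gene, so the ranks of the Duxbl arm are approximate.

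Embryonic Duxbl1 rose during the 2-cell stage. Its mean in uninjected embryos was 119 ± 28.0 CPM (SD, n = 6) at the late 1-cell stage, 191 ± 40.5 at the early 2-cell stage and 388 ± 205 at the late 2-cell stage, and in mCherry embryos 140 ± 19.3, 171 ± 39.0 and 339 ± 137. From the early to the late 2-cell stage the level rose by 0.78 on the log2 scale in uninjected embryos (SE 0.30, limma adjusted p = 0.0230, 57.1% of 28808 genes called) and by 0.90 in mCherry embryos (SE 0.30, limma adjusted p = 0.00895, 57.3% called). The preceding step, late 1-cell to early 2-cell, was 0.69 (SE 0.30) and 0.27 (SE 0.30), and neither was called (2.89% and 1.27% of genes called). The late 2-cell controls were uneven. The 4 late 2-cell control libraries numbered 4 and 5 held 85.8 to 244 CPM and the other 8 held 253 to 628 CPM, without overlap. Without the libraries numbered 4 and 5 the early to late 2-cell step was 1.57 in uninjected and 1.31 in mCherry embryos. With voom weights it was 0.80 and 0.92 and was not called in either arm (limma adjusted p = 0.117 and 0.0775), and fitted with the compared groups alone the uninjected step was not called (limma adjusted p = 0.0718). The uninjected step was also lost without uninjected early 2-cell library 7 or any of uninjected late 2-cell libraries 1, 3 and 7, with values down to 0.59.

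In Duxbl embryos the summed level of injected and embryonic RNA did not rise. Its mean was 3960 ± 630 CPM (SD, n = 4) at the late 1-cell stage, 2943 ± 1027 (n = 5) at the early 2-cell stage and 2804 ± 1111 (n = 5) at the late 2-cell stage. The steps were -0.50 (SE 0.35; 0.923% of genes called) and -0.08 (SE 0.33; 38.8% called), and neither was called. The second step was 0.02 with library totals as the only scaling. The difference between the early to late 2-cell steps of Duxbl and mCherry embryos was -0.98 (SE 0.45), with an unadjusted p of 0.0328 and a limma adjusted p of 0.0688, where 44.8% of genes were called. It was called without the libraries numbered 4 and 5 (-1.49, adjusted p = 0.00162), with library totals as the only scaling (-1.28, adjusted p = 0.00575), and without mCherry late 2-cell library 4 (-1.18), Duxbl early 2-cell library 3 (-1.22) or Duxbl late 2-cell library 4 (-1.17). Ordered by mean level, the 9 groups run from Duxbl late 1-cell down to uninjected late 1-cell embryos. Of the 8 neighbouring pairs in that order only Duxbl against uninjected late 2-cell embryos was called (3.01, SE 0.41; 56.9% of genes called). 6 pairs were tested and not called. The remaining pair, mCherry late 2-cell and uninjected early 2-cell embryos, differs in both stage and arm and was not tested, and its libraries overlap.

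Duxf3 was scarce in every group, and no difference between Duxbl and control embryos was called. At the late 1-cell stage the 4 Duxbl libraries held 2.69, 3.55, 1.06 and 0.0419 CPM. The mCherry libraries ranged from 0.609 to 5.85 CPM (median 2.25) and the uninjected ones from 0.166 to 5.49 (median 1.44). The 3 groups overlapped over most of their range. At the early 2-cell stage the Duxbl libraries held 2.00, 2.25, 2.38, 2.44 and 3.08 CPM, within the mCherry range of 0.467 to 7.71 (median 3.17). The uninjected libraries ranged from 2.73 to 6.66 CPM (median 4.64), and 4 of the 5 Duxbl libraries lay below their lowest. In late 2-cell embryos Duxf3 was listed at 0 in 8 of 17 libraries, 2 of them Duxbl, 4 mCherry and 2 uninjected, and the highest value was 1.77 CPM in uninjected library 1. The Duxbl libraries there held 0, 0.191, 0.0962, 0 and 0.134 CPM. Per kb of exon the means of Duxf3 were 0.692, 1.69 and 0.128 CPM in uninjected and 1.02, 1.34 and 0.0258 CPM in mCherry embryos at the 3 stages, below those of Duxbl1 in every group. The uninjected late 2-cell mean was carried by library 1, and Duxf3 is too close to 0 at that stage for a fold between the genes.

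**Figure D2:**
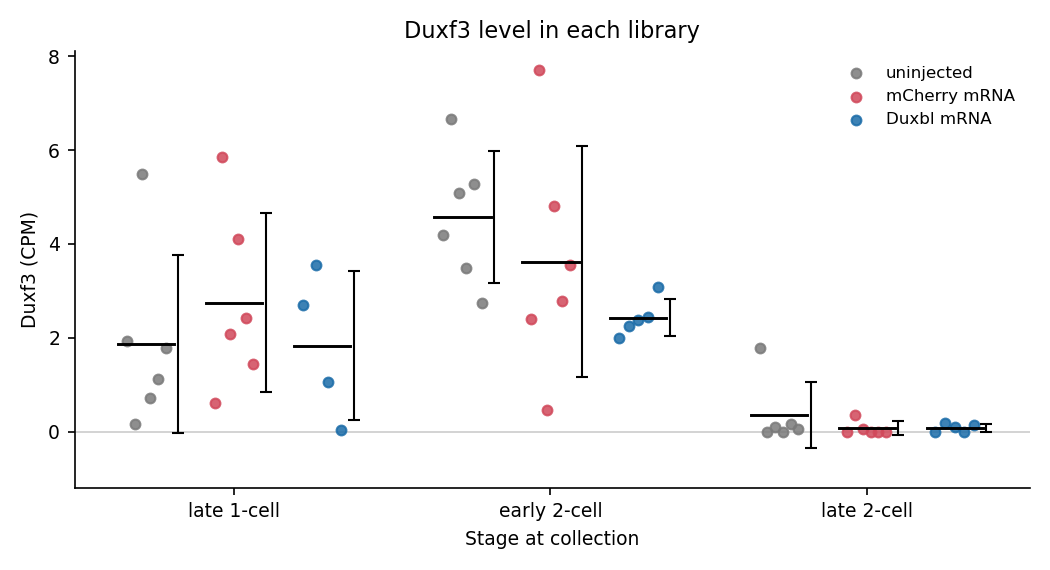
Duxf3 level in each of the 50 libraries (CPM, linear axis) by stage and arm. Points are libraries, horizontal bars are group means and vertical bars the SD. The arms overlap at the late 1-cell stage, and 16 of the 17 late 2-cell libraries lie at 0.362 CPM or lower.

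The difference in Duxf3 between Duxbl and mCherry embryos on the log2(CPM + 1) scale was -0.46 (SE 0.47, limma adjusted p = 0.92) at the late 1-cell stage and -0.24 (SE 0.33, limma adjusted p = 1.00) at the early 2-cell stage. The 95% intervals, from -1.42 to 0.51 and from -0.94 to 0.45, leave room for changes in both directions. Against uninjected embryos the early 2-cell difference was -0.67 (SE 0.33), with an unadjusted p of 0.0586 (limma adjusted p = 0.658, 0.788% of genes called). At the late 2-cell stage Duxf3 did not pass the filter on low values. Fitted without that filter the difference from mCherry embryos was 0.03 (SE 0.21, 95% interval -0.41 to 0.47). The mCherry embryos differed from uninjected ones by 0.45 (SE 0.42) and -0.42 (SE 0.32) at the first 2 stages, and neither was called.

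Duxf3 fell from the early to the late 2-cell stage in all 3 arms. The decrease was -2.13 (SE 0.35) in uninjected, -1.93 (SE 0.35) in mCherry and -1.66 (SE 0.39) in Duxbl embryos, with limma adjusted p-values of 7.83e-07, 5.12e-06 and 0.000453. With a pseudocount of 0.1 CPM, which holds back low values less, the decreases were -4.30, -4.38 and -3.90. The step in Duxbl embryos differed from that in mCherry embryos by 0.27 (SE 0.52, 95% interval -0.78 to 1.32), which was not called (limma adjusted p = 0.706). For the preceding step the difference was 0.21 (SE 0.54) for Duxf3 and -0.77 (SE 0.46) for Duxbl1, and neither was called (0.00347% of genes called). From the late 1-cell to the early 2-cell stage Duxf3 changed by 1.14 (SE 0.35, limma adjusted p = 0.0677) in uninjected, 0.27 (SE 0.35) in mCherry and 0.48 (SE 0.41) in Duxbl embryos. None was called in the fit of all 9 groups. The uninjected step was called when only the compared groups were fitted (adjusted p = 0.0469), without uninjected late 1-cell library 4 (adjusted p = 0.0122) and without uninjected early 2-cell library 7 (adjusted p = 0.0468).

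Among the genes beside Duxf3, Gm4981, the next gene at 2.17 kb, was the only one of the near copies with a substantial level. It was singled out after its values were seen. Its mean was 79.1, 84.5 and 2.698 CPM at the 3 stages in uninjected embryos, 66.1, 65.0 and 2.66 CPM in mCherry embryos, and 71.0, 68.1 and 18.4 CPM in Duxbl embryos. It was 2.39 higher in Duxbl than in mCherry late 2-cell embryos on the log2 scale (SE 0.57, limma adjusted p = 0.00122). Its early to late 2-cell step was -4.69 (SE 0.37) in uninjected and -2.16 (SE 0.41) in Duxbl embryos, and both were called. AW822073 and Gm10807, which share more sequence with Duxf3, had group means of 1.64 CPM or lower. Gcc2, 22.8 kb away, encodes a Golgi tethering protein. It averaged 32.7 ± 7.31 CPM in mCherry (SD, n = 6) and 78.4 ± 33.1 CPM in Duxbl late 2-cell embryos (n = 5), a rise of 1.18 (SE 0.31, limma adjusted p = 0.00288).

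The spread of Duxbl1 between pools of the Duxbl arm allowed its level to be set against the rest of the transcriptome. The highest Duxbl library held 1.42 times the Duxbl1 level of the lowest at the late 1-cell stage, 2.76 times at the early 2-cell stage and 3.33 times at the late 2-cell stage. Departure, progress and family sums were computed for each library without either member. The departure is the median absolute log2 difference of all tested genes from the mean of the mCherry libraries of that stage, the library itself left out. The progress places a library between the uninjected early 2-cell mean (0) and the uninjected late 2-cell mean (1), as a median over 12451 genes that differ between those stages. Uninjected libraries lie near 0 and 1 by construction. The family sums add the CPM of the 6 Zscan4, 5 Usp17l and 18 Eif1ad genes measured, all transcribed in normal embryos around the 2-cell stage.

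At the first 2 stages the distance of the Duxbl libraries from the mCherry mean lay within the range of the controls. The departure was 0.265 to 0.299 in Duxbl libraries of the late 1-cell stage, 0.221 to 0.322 in mCherry and 0.239 to 0.328 in uninjected libraries. At the early 2-cell stage it was 0.241 to 0.351, 0.257 to 0.368 and 0.230 to 0.435. Duxbl early 2-cell library 3, with the lowest Duxbl1 level of its group, had a departure of 0.256, and library 7, with the highest, 0.241. Usp17l RNA was lower at both stages. At the late 1-cell stage the Usp17l sum was 1.82, 3.55, 3.92 and 5.07 CPM in the Duxbl libraries, in falling order of Duxbl1 level, and the 4 values run opposite to it. The mCherry libraries ranged from 13.3 to 38.7 CPM and the uninjected ones from 12.97 to 32.8, without overlap. Usp17lc (-2.29, SE 0.35, limma adjusted p = 0.00686) and Usp17ld (-2.57, SE 0.34, limma adjusted p = 0.00136) were called against mCherry embryos. The Zscan4 sum of 8.07 to 24.2 CPM and the Eif1ad sum of 30.2 to 64.2 CPM overlapped those of mCherry libraries at this stage. At the early 2-cell stage the Usp17l sum, from the lowest to the highest Duxbl1 level, was 11.99, 11.98, 4.57, 6.004 and 16.3 CPM against 42.2 to 129 CPM in mCherry embryos, so the order seen at the late 1-cell stage was not repeated. The Zscan4 sum in that order was 9.18, 10.9, 20.6, 4.33 and 14.2 CPM, against 45.9 to 309 CPM in mCherry embryos. The Eif1ad sum in that order was 63.3, 54.3, 54.0, 31.7 and 62.2 CPM, against 106 to 533 CPM in mCherry embryos. The library with the least Duxbl1 lay within the range of the other 4 for Usp17l and Zscan4 and was the highest for Eif1ad. With 4 or 5 pools per stage no correlation is given.

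**Figure D3:**
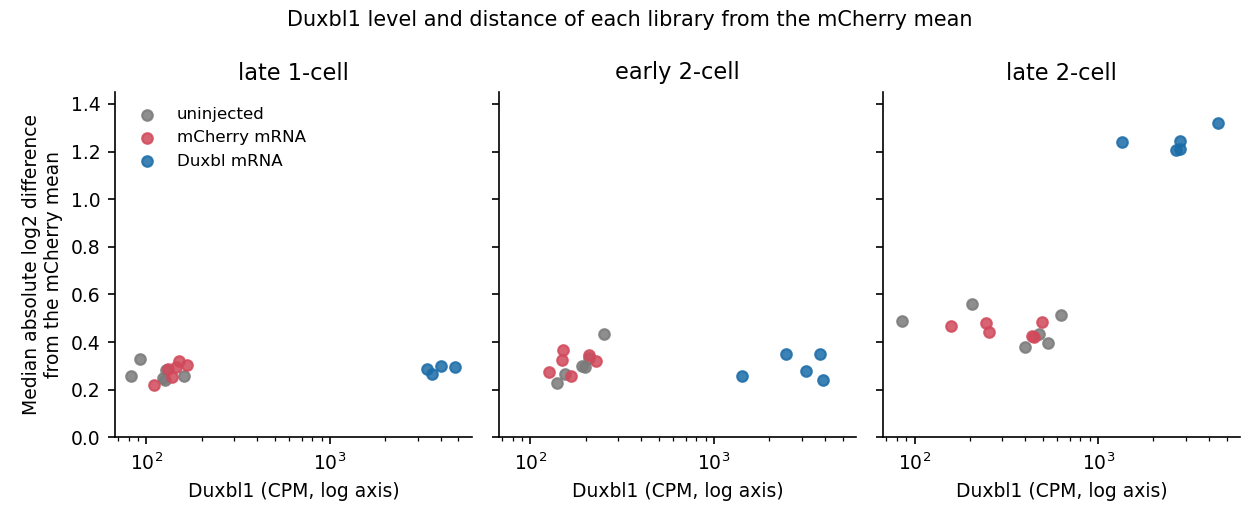
Duxbl1 level (CPM, log axis) and departure (median absolute log2 difference from the mCherry mean) of each library, 1 panel per stage, coloured by arm. The Duxbl libraries lie at the height of the controls at the first 2 stages and at 1.21 to 1.32, above all controls, at the late 2-cell stage.

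By the late 2-cell stage all 5 Duxbl libraries stood apart from the controls by a similar amount. Their departure was 1.21, 1.24, 1.32, 1.25 and 1.21 in libraries 1, 3, 4, 6 and 7, while controls ranged from 0.379 to 0.561. Library 3 had the lowest Duxbl1 level (1343 CPM) and library 4 the highest (4472 CPM), and their departures differed by less than the range of the controls. The progress was 0.270, 0.118, 0.263, 0.158 and 0.207 in the same order, against 0.914 to 1.07 in mCherry libraries. Library 3, with the least Duxbl1, also had the lowest progress. Libraries 1 and 6 had nearly the same Duxbl1 level, 2772 and 2775 CPM, and progress values of 0.270 and 0.158. The Zscan4 sums were 17.4, 1.82, 6.78, 1.17 and 8.60 CPM and the mCherry libraries held 266 to 1018 CPM. Eif1ad RNA was 309 CPM in library 1 and 24.0 to 40.7 CPM in the other 4, against 734 to 3102 CPM in mCherry embryos. The Usp17l sums were 50.4, 8.80, 15.3, 3.84 and 14.3 CPM in libraries 1, 3, 4, 6 and 7, against 296 to 1629 CPM in mCherry embryos. Library 1 was thus the least depleted in all 3 families, at a middle Duxbl1 level. Some markers of other cells moved with the arm. The sum of the 3 oviduct markers was 15.5 to 89.3 CPM in Duxbl and 2.82 to 14.4 CPM in control libraries. Nearly all of it was Ovgp1, the only one tested, which was called higher than in mCherry embryos. Pax8 averaged 0.731 CPM in Duxbl, 0.00827 CPM in mCherry and 0.0626 CPM in uninjected embryos and was listed at 0 in 3 of 5, 5 of 6 and 4 of 6 libraries, and Foxj1 was at 0 in 4 of 5, 4 of 6 and 3 of 6. The 6 granulosa markers summed to 12.97 to 47.6 CPM in Duxbl and 2.88 to 12.7 CPM in control libraries, and 2 of the 3 tested were called higher and 0 lower. Cyp19a1 averaged 17.7 CPM in Duxbl and 4.01 CPM in mCherry embryos and Has2 5.89 and 0.894 CPM, while Inha was at 0 in all libraries of both arms. The 5 sperm markers summed to 3.39 to 31.4 CPM in Duxbl and 1.78 to 9.22 CPM in control libraries, but moved in opposite directions, with 1 called higher and 2 lower of 3 tested (median -1.03). Prm2 averaged 10.1 CPM in Duxbl and 0.637 CPM in mCherry embryos, Prm1 0.0866 and 1.35 CPM, and Tnp1 0.913 and 3.27 CPM. The 3 blood markers measured summed to 0 to 12.9 CPM in Duxbl and 16.9 to 60.4 CPM in control libraries, and both of those tested were called lower. At this stage 25.6% of all genes were called higher and 30.1% lower. Their part in the result was not tested.

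**Figure D4:**
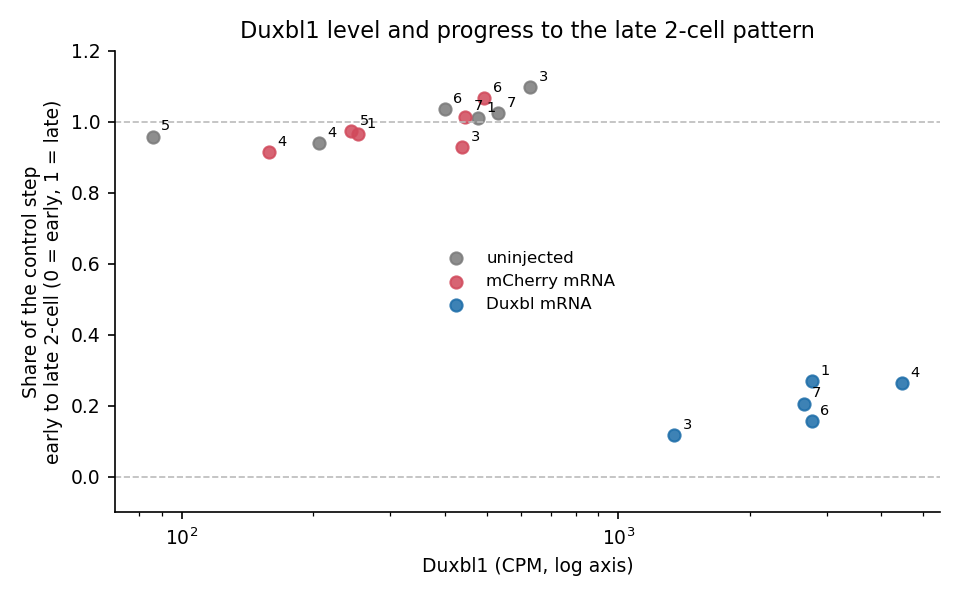
Duxbl1 level (CPM, log axis) and progress from the early (0) to the late (1) 2-cell pattern of uninjected embryos for the 17 late 2-cell libraries. Numbers are library numbers. The 5 Duxbl libraries lie between 0.118 and 0.270, and the controls between 0.914 and 1.10.

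No gene was called in a test of the whole transcriptome against the Duxbl1 level within the Duxbl arm. A slope on the log2 Duxbl1 level, centred within each stage, was fitted over the 14 Duxbl libraries with limma. It called 0 of 22570 genes (0%), with 1886 genes at an unadjusted p under 0.05, 1016 of them with a positive slope. The smallest adjusted p was 0.588. Over the 5 late 2-cell libraries alone 0 of 13024 genes (0%) were called and 1046 had an unadjusted p under 0.05. The number called became 91 without library 3 and 5 without library 4, where 4 libraries remained. The slope of Duxf3 over the 14 libraries was 0.22 (SE 0.33), so its interval covers both signs. Among the listed 2-cell genes of the 3 families that could be fitted, Zscan4 slopes ran from 0.01 (Zscan4d, SE 0.42) to 0.45 (Zscan4c, SE 0.50). Those of Usp17l ran from -0.27 (Usp17lb, SE 0.35) to 0.90 (Usp17lc, SE 0.48), with Usp17le at 0.03 (SE 0.20). Those of Eif1ad ran from -0.06 (Eif1ad8, SE 0.54) to 1.05 (Eif1ad7, SE 0.55, limma adjusted p = 0.603). None of the 10 genes listed below as activators of Dux was called, and their median slope was -0.02 beside 0.02 over all genes.

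The same fit over the 36 control libraries, where Duxbl1 is embryonic only, called 5002 of 24779 genes (20.2%), 2525 with a positive (10.2%) and 2477 with a negative slope (10%). With library totals as the only scaling it called 5905 genes, 1269 positive and 4636 negative. The SD of the log2 Duxbl1 level within groups was 0.57 in controls and 0.53 in the Duxbl arm. The 5 positive slopes with the smallest p belonged to Trmt112, an activating partner of several methyltransferases (0.89, SE 0.08), Cdca5, the cohesin protector sororin (0.69, SE 0.07), Mbd3l2, a member of the MBD3-like family (1.04, SE 0.10), 1700017B05Rik (1.69, SE 0.18) and Nip7, a ribosome assembly factor (0.74, SE 0.08). The 5 negative ones were Trim29 (-0.86, SE 0.10), Bcam, a laminin receptor (-1.07, SE 0.13), Cyb5a, cytochrome b5 (-0.95, SE 0.12), Cybrd1, a membrane ferric reductase (-1.39, SE 0.18), and Gm30094 (-1.25, SE 0.16). Their limma adjusted p-values were 1.84e-06 or lower. Duxf3 had a slope of 0.21 (SE 0.20) and was not called (limma adjusted p = 0.508). In the Duxbl arm Trmt112 had a slope of -0.00 (SE 0.15), Mbd3l2 of 0.05 (SE 0.15) and Nip7 of -0.05 (SE 0.17). Cdca5 had -0.16 (SE 0.15) and 1700017B05Rik 0.04 (SE 0.44). Of the negative genes, Bcam had 0.77 (SE 0.42), Cyb5a 0.14 (SE 0.33) and Gm30094 0.12 (SE 0.30), while Trim29 and Cybrd1 did not pass the filter there. The difference of the slopes between arms was not tested.

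The control calls came mainly with the late 2-cell libraries. Fitted by stage, 1 gene was called at the late 1-cell stage (0.00555%), 0 at the early 2-cell stage (0%, 2396 genes at an unadjusted p under 0.05) and 2975 at the late 2-cell stage (15.1%). Without the libraries numbered 4 and 5, a set left out after the data were seen, limma called 0 of 24522 genes (0%), and 3180 had an unadjusted p under 0.05. The SD of the log2 Duxbl1 level was then 0.30. The slopes themselves changed little for Nip7 (0.78, SE 0.17), Cdca5 (0.62, SE 0.16), Cyb5a (-1.03, SE 0.25) and Gm30094 (-1.16, SE 0.32), while that of 1700017B05Rik was 0.99 (SE 0.37) and that of Bcam -0.58 (SE 0.26). Trim29 did not pass the filter. These genes were chosen by their p over all 36 control libraries, which include those kept here, so the likeness of the slopes is partly built in. The 4 late 2-cell controls with those numbers had scaling factors of 1.30 to 1.52 and the other 8 of 1.08 to 1.31, and the progress was 0.914 to 0.974 and 0.928 to 1.10. All levels in a library share its scaling, and the part of these differences in the calls was not tested.

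**Figure D5:**
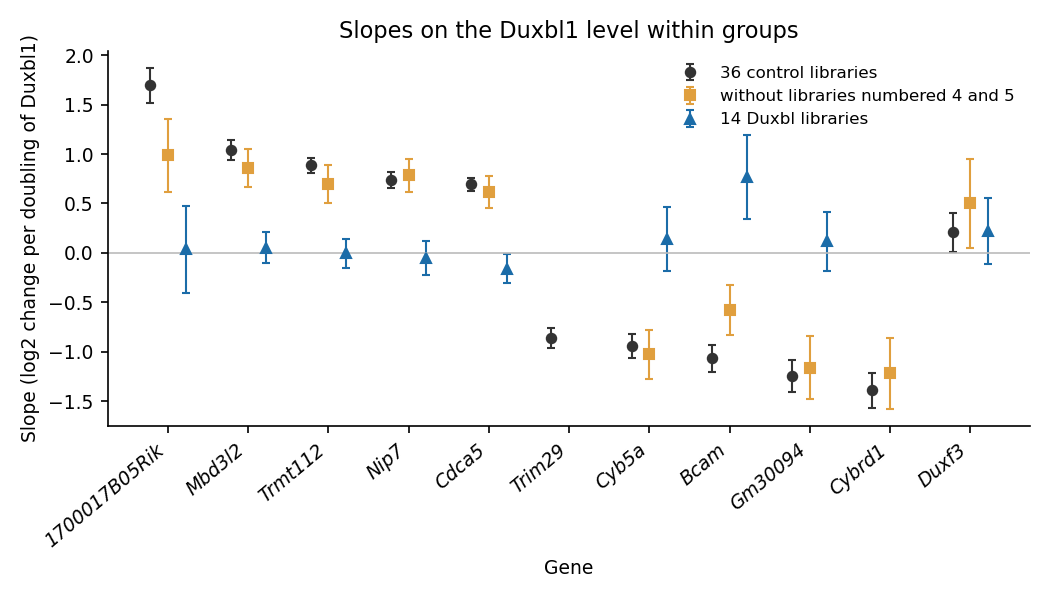
Slope (log2 change per doubling of Duxbl1, with SE) of the 5 positive and 5 negative control slopes with the smallest p of their sign and of Duxf3, over 36 control libraries, without the libraries numbered 4 and 5, and over 14 Duxbl libraries. The first 2 sets have the same sign for each of the 9 of these 10 genes fitted in both. The genes were chosen over the 36 libraries, which include the second set, so the shared sign is no separate support. The Duxbl slopes of the 5 positive genes lie between -0.16 and 0.05, and those of the negative genes that were fitted between 0.12 and 0.77.

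The genes whose pattern was most like that of the members were sought over the 36 control libraries among 12385 genes with a mean of at least 5 CPM. For Duxbl1 they were Nip7 (Pearson r = 0.93), Bnip3, a mitochondrial protein of cell death and mitophagy (0.90), Gm11413 (0.90), Gm12263 (0.90) and Frg2f1 (0.89). For Duxf3 they were Gm9729 (0.82), Accsl (0.81), Psme3, a proteasome activator subunit (0.81), 9330102E08Rik (0.81) and Gm42553 (0.81). These libraries share 3 stages, which set most of the spread, and the values are a description.

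Genes taken here as upstream of Dux were described as lists, and whether each member acts on Dux was not tested. The 10 listed as activators comprise Dppa2 and Dppa4, chromatin proteins that open the Dux locus, Nelfa, Trp53 (p53) and 6 Obox homeobox entries. At the late 1-cell and early 2-cell stage 0 of 10 were called between Duxbl and mCherry embryos, where limma called 0.0193% and 0.42% of all genes. Their median difference was -0.18 and -0.20, beside -0.00 and -0.02 over all genes. Among late 2-cell embryos, where 55.7% of all genes were called, 4 were higher and 6 lower, with a median of -1.51 beside -0.10 over all genes. The difference for Dppa4 was -4.97 on the log2 scale (SE 0.32, limma adjusted p = 4.17e-11). Its mean was 12.9 CPM there, 413 CPM in late and 15.7 CPM in early mCherry 2-cell embryos, so the late Duxbl level lay near that of the earlier stage. Obox3 differed by -6.42 (SE 0.46), at 4.03 CPM against 406 CPM. Dppa2 differed by -3.51 (SE 0.36), at 25.7 CPM against 307 CPM late and 121 CPM early in mCherry embryos, and so fell below the early level (step in Duxbl embryos -2.12, SE 0.26). Obox2 was 1.89 higher (SE 0.28). It is abundant before and lower at the late 2-cell stage, and Duxbl embryos were between, with 1068 CPM against 296 CPM late and 2855 CPM early in mCherry embryos. In the control slopes 4 of the 10 activators were called, all positive, beside 10.2% of all genes. Their slopes were 0.65 for Dppa2 (SE 0.09), 0.76 for Obox3 (SE 0.20), 0.40 for Dppa4 (SE 0.13) and 0.33 for Nelfa (SE 0.09). Without the libraries numbered 4 and 5 no gene was called in the control slopes.

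Of 29 listed repressors of Dux or of the 2-cell state, 28 were tested at the first 2 stages and 0 were called at either, where 0.0193% and 0.42% of all genes were called. In late 2-cell embryos 6 were higher and 10 lower, a share near that of all genes (25.6% higher and 30.1% lower), with a median of -0.38 beside -0.10 over all genes. Trim28, the corepressor recruited by zinc finger proteins, differed by -3.95 (SE 0.30), at 11.3 ± 5.49 CPM (SD, n = 5) against 180 ± 48.7 CPM (n = 6), without overlap. L3mbtl2, a subunit of the non-canonical polycomb complex PRC1.6, differed by -4.99 (SE 0.39), and Max, which belongs to the same complex, was 2.32 higher (SE 0.26), at 290 CPM against 59.9 CPM. Setdb1, the histone methyltransferase that works with Trim28, differed by -1.80 (SE 0.29) and Hdac1 by -1.66 (SE 0.26). Pcgf6, also of PRC1.6, differed by 1.11 (SE 0.21). In the control slopes 5 of the 29 repressors were called positive and 1 negative, beside 10.2% and 10% of all genes.

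Trim24 and Trim33, chromatin readers reported to bind DUXBL, were measured in all groups. In late 2-cell embryos Trim24 stood at 80.8 ± 18.5 CPM in Duxbl (SD, n = 5) and 73.3 ± 16.0 CPM in mCherry embryos (n = 6), a difference of 0.14 (SE 0.26) that was not called. Trim33 differed by -1.74 (SE 0.32, limma adjusted p = 6.87e-05), at 53.1 CPM against 182 CPM late and 72.0 CPM early in mCherry embryos. Neither was called at the 2 earlier stages, where Trim33 differed by 0.26 (SE 0.21) and -0.14 (SE 0.19). In the control slopes Trim33 was called (0.39, SE 0.13) and Trim24 was not (0.05, SE 0.10).

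The genes around Duxbl1 on chromosome 14 were given by their own values, since injected RNA does not add to them. Cphx1, a homeobox gene 22.2 kb away, had group means of 447 to 662 CPM over the 3 stages and differed by -0.34 (SE 0.24) between Duxbl and mCherry late 2-cell embryos, which was not called. The other 3 listed genes of the locus that were measured were called lower at that stage, where 30.1% of all genes were called lower. Plac9a rose from 0.868 to 105 CPM between the early and late 2-cell stage in mCherry embryos and stood at 2.52 CPM in late Duxbl embryos, a difference of -4.86 (SE 0.34). Tmem254a, a transmembrane protein gene, differed by -2.52 (SE 0.44), at 31.8 ± 24.5 CPM (SD, n = 5) against 139 ± 33.3 CPM (n = 6), and in Duxbl embryos it also fell from the early 2-cell stage (-1.64, SE 0.33). Anxa11, annexin A11, differed by -2.52 (SE 0.39), at 0.128 CPM against 5.59 CPM. Of the 5 flanking genes tested in late 2-cell embryos, Cphx1 and Tmem254a included, 1 was called higher and 2 lower. Among all genes the shares were 25.6% and 30.1%. The early to late 2-cell step of the flanking gene 4933413J09Rik differed between Duxbl and mCherry embryos by 1.56 (SE 0.38, limma adjusted p = 0.000683). That of Gm34059 differed by -3.15 (SE 0.67) and that of Gm19013 by -0.61 (SE 0.72, not called), where 44.8% of genes were called. In the control slopes Cphx1 was called (0.40, SE 0.07) and so was Plac9a (0.41, SE 0.14), beside 10.2% of all genes with a positive call. Without the libraries numbered 4 and 5 neither was called. At the late 1-cell and early 2-cell stage 0 of the 4 listed locus genes were called between Duxbl and mCherry embryos. At those stages limma called 0.0193% and 0.42% of all genes.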

How the data were processed

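RNA-seq of pooled mouse embryos was analysed from 1 table of 35750 genes and 50 libraries. Libraries were made with SMART-Seq v4 and Nextera XT and read in pairs of 75 bases, per the labels' protocols. The submitters' processing notes name Trimmomatic 0.39, STAR 2.7.10a, Picard 3.0.0, featureCounts 2.0.4, DESeq2 1.36.0 and the genome mm39, with no role given. The deposited values are a score: whole numbers whose low values are spaced 0.554 to 1.99 apart per read, so they were treated as read counts scaled per library and rounded by the authors, and no count model was used. The deposited totals are therefore not exact depths, and low values carry counting error that is not given separately.

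From these values CPM was computed with trimmed-mean factors over all 50 libraries (30% and 5% trimmed). limma 3.58.1 in R 4.3.3 was run on log2(CPM + 1) with trend and robust moderation, for genes that reached a value of 10 in a number of libraries equal to the smallest group fitted, and p-values were adjusted by Benjamini-Hochberg over all genes tested (called: under 0.05). Stage comparisons used the 3 groups of a stage, stage steps all 9 groups, and slopes the log2 Duxbl1 level centred within groups. Scripts were tested on simulated data. The genes and lists were chosen with earlier results of these data known. Genes were named by rule: both members, up to 6 called genes of a list and comparison, 5 genes by likeness, 5 slopes each way, and the flanking genes. In late 1-cell Duxbl and mCherry embryos, libraries with the same number deviated together (r = 0.18 to 0.31 in 4 pairs). The mean r of same-numbered libraries was 0.04 for late 2-cell Duxbl and mCherry embryos and 0.19 to 0.20 in the remaining comparisons. Sequences come from GENCODE M21.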

Additional observations from a re-analysis of the deposited data

Results flagged for a closer look

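Within-group outliers were sought in 36 sets of values, and 5 were found by Dixon's test at the 95% level, which marks about 1 set in 20 by chance. Duxf3 was 5.49 CPM in uninjected late 1-cell library 4, where the next library held 1.93 CPM. It was 1.77 CPM in uninjected late 2-cell library 1, with the next at 0.151 CPM, and 0.362 CPM in mCherry late 2-cell library 3, with the next at 0.0556 CPM. In Duxbl late 2-cell library 1 the Usp17l sum was 50.4 CPM (next 15.3 CPM) and the Eif1ad sum 309 CPM (next 40.7 CPM), at a Duxbl1 level of 2772 CPM.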

How the results depend on the processing

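Of 213 values of the members and slope counts under another setting, 201 kept their direction and call, apart from single libraries left out. With voom weights the early to late 2-cell step of Duxbl1 was not called in uninjected (0.80) and mCherry embryos (0.92). Library totals alone gave 0.015 for that step in Duxbl embryos and -1.28 for its difference from mCherry embryos, which was then called. Without the libraries numbered 4 and 5, chosen after seeing the data, that difference was -1.49 and called. Fitted with the compared groups alone, the uninjected step of Duxbl1 was called from the late 1-cell to the early 2-cell stage (0.69) and not from the early to the late 2-cell stage (0.78), and that of Duxf3 was called for the former (1.14). The control slope count was 0 without the libraries numbered 4 and 5, 1 in late 1-cell, 0 in early 2-cell and 2975 in late 2-cell libraries alone. The causes were not tested. Totals alone moved the median step of all genes by 0.12 in uninjected and 0.13 in mCherry embryos from the early to the late 2-cell stage.

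With each library left out, mCherry minus uninjected Duxbl1 at the late 2-cell stage ranged from -0.42 to 0.15. The early to late 2-cell step of Duxbl1 ranged from 0.59 to 1.17 in uninjected and from -0.32 to 0.16 in Duxbl embryos, and its difference between Duxbl and mCherry from -1.22 to -0.74. For Duxf3 the late 1-cell to early 2-cell step ranged from 0.92 to 1.42 in uninjected embryos and its difference between Duxbl and mCherry from -0.20 to 0.51. The slope count ranged from 0 to 91 in late 2-cell Duxbl libraries and from 3618 to 5245 in controls.

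With the library number as a block, Duxbl1 was 4.78 higher in Duxbl than in mCherry embryos at the late 1-cell, 3.995 at the early 2-cell and 2.83 at the late 2-cell stage, no call of a member changed, and the control slope called 5116 genes. Same-numbered libraries correlated above 0.1 in every pair only for the late 1-cell Duxbl and mCherry embryos (other comparisons from -0.00 to 0.36). Their mean correlation was 0.04 for late 2-cell Duxbl and mCherry embryos and 0.19 to 0.24 in all other comparisons. Libraries with different numbers had means of -0.05 to -0.01. Pools numbered alike therefore deviated together on average, and the main fits left the number out. Duxf3 at the late 2-cell stage lies near the limit of detection, and 4 or 5 Duxbl pools per stage limit any relation to dose.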
